A study of Mus musculus with 7 samples.

Results

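The miRNAs described here are the 9 mature arms listed for the 5 hairpins in introns of Htr2c, the X-linked gene of the serotonin receptor 5-HT2C, among 1914 mouse miRNA rows of the counts. They were chosen by their place in this gene, with their levels and co-variation in these libraries already known, so levels, sums and correlations are given as descriptions without a test. Adult C57BL/6J mice, either TAp73 knockout (4 libraries) or wild type (3 libraries), gave lateral ventricles and choroid plexus together for small RNA sequencing. TAp73 denotes the p73 proteins, products of Trp73, that keep the transactivation domain. The sources used here do not give sex, exact age, the knockout allele or whether a library is 1 animal, so the spread that p-values measure is that between libraries and may be technical. The Htr2c mRNA and the Trp73 mRNA were not measured.

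Htr2c is among the receptor genes most strongly expressed in choroid plexus epithelium, the tissue that secretes cerebrospinal fluid, and it is also expressed by some neurons. An intronic miRNA is commonly cut from the host gene's primary transcript: Drosha releases a hairpin, Dicer cuts it to a duplex, and the 5p or the 3p strand is kept in Argonaute while the other is usually degraded. Bases 2 to 8 of the kept strand, the seed, pair with target mRNAs. Of the members, miR-448 has been described in mouse adipocyte precursors as a repressor of Klf5. miR-204-5p, cut from an intron of Trpm3, is a well-known abundant miRNA of choroid plexus and pigment epithelium.

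Mature sequences were found in RefSeq (GRCm38.p6) for 8 of the 9 arms. They are shown, in the order of the loci along the gene, because the seed decides which messages each arm could pair with; capitals mark the seed, and miR-204-5p is added as the choroid plexus comparison.
mmu-miR-764-5p: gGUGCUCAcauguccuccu
mmu-miR-764-3p: aGGAGGCCauaguggcaacugu
mmu-miR-1912-3p: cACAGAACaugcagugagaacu
mmu-miR-1264-3p: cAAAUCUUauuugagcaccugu
mmu-miR-1298-5p: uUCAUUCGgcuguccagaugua
mmu-miR-1298-3p: cAUCUGGGcaacugauugaacu
mmu-miR-448-5p: gAACAUCCugcauagugcugcc
mmu-miR-448-3p: uUGCAUAUguaggaugucccau
mmu-miR-204-5p: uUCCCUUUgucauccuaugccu
The 8 sequences had 8 different seeds, none of them that of miR-204-5p, so no 2 of these 8 arms share a seed. miR-1264-5p was not examined. Among the 1679 mature names of that table, 1 outside the members had a member's seed: miR-7062-5p, which shares that of miR-764-3p. None of the 8 had 16 bases in a row in common with another mature miRNA of the table. The tables also listed 16 rows for these loci in other species, which held 0 reads.

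Htr2c (build GRCm38, plus strand, chrX:146962513-147197277) is 234.8 kb long, and all 5 hairpins lie on its strand. In its transcript Htr2c-201, which has 6 exons, Mir764 (chrX:147002259-147002366), Mir1912 (chrX:147009441-147009527), Mir1264 (chrX:147010601-147010686) and Mir1298 (chrX:147064905-147065002) lie in intron 2, before the start codon. Mir448 (chrX:147158210-147158321) lies in intron 4, 93.3 kb beyond Mir1298. The closest pair, Mir1912 and Mir1264, start 1.16 kb apart. The hairpins of miR-1298 and miR-448 are printed because these loci gave most of the reads and kept opposite strands; here capitals mark the 5p arm and then the 3p arm.
Mir1298: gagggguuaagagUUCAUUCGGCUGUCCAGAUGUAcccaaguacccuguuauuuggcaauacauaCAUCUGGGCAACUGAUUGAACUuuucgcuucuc
Mir448: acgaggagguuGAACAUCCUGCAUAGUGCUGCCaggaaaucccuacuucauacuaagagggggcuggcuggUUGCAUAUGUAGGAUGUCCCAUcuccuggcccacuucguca

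**Figure D1:**
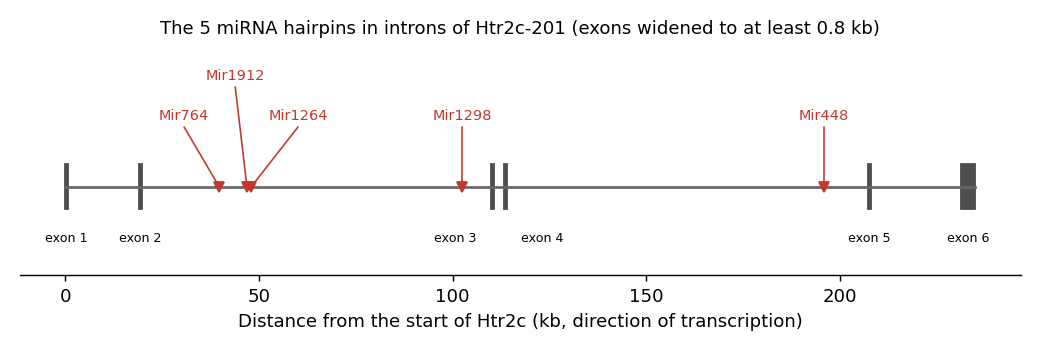
Positions of the 5 hairpins (red triangles) along Htr2c in kb from the gene's start, with the 6 exons of Htr2c-201 as grey boxes drawn at least 0.8 kb wide. The first 4 hairpins share intron 2, and Mir448 lies alone in intron 4.

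Mouse miRNA reads numbered 955057 to 9233235 in the knockout libraries and 2211619 to 3647102 in the wild type libraries. Levels are counts per 1000000 of these reads (CPM), so they are shares of each library. Knockout replicate 3 was the shallowest, and there 1 read equals 1.05 CPM. That library and wild type replicate 2 also stood apart in miR-204-5p, at 2006 and 2009 CPM, against 4993 to 7429 CPM in the other knockout libraries and 8311 and 11775 CPM in the other wild type libraries. Values that these 2 libraries move by much are given with and without them. In this bulk tissue, fewer cells of a type and less RNA per cell cannot be told apart.

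mmu-miR-1298-5p was the most abundant arm and ranked 68th of all mouse miRNA rows by mean CPM, against rank 28 for miR-204-5p. It stood at 603, 771, 181 and 549 CPM in knockout replicates 1 to 4, against 1874, 304 and 2136 CPM in wild type replicates 1 to 3. Wild type replicates 1 and 3 lay above every knockout library, but wild type replicate 2 lay below 3 of the 4 knockouts, so the groups overlapped. Its opposite arm, mmu-miR-1298-3p, stood at 160.4, 138, 108 and 136 CPM in the knockouts, against 261, 181 and 305 CPM in the wild types. Every knockout library lay below every wild type library. mmu-miR-448-3p, the dominant arm of the hairpin in intron 4, had 103, 113, 31.4 and 90.4 CPM in the knockouts, against 235, 48.4 and 285 CPM in the wild types. The order of its libraries was that of miR-1298-5p, and the groups again overlapped through wild type replicate 2.

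The other 6 arms were below 60 CPM in every library. mmu-miR-1264-3p was the most even of the 9, at 28.9, 33.8, 32.5 and 27.3 CPM in the knockouts, against 57.5, 28.5 and 49.4 CPM in the wild types. Wild type replicate 2 lay within the knockouts, so the groups overlapped. mmu-miR-764-3p had 25.2, 19.7, 7.33 and 16.5 CPM in the knockouts, against 29.7, 28.0 and 48.5 CPM in the wild types. All knockouts lay below all wild types. mmu-miR-1912-3p had 8.01, 13.4, 2.09 and 11.6 CPM in the knockouts, against 28.5, 4.07 and 35.9 CPM in the wild types, with 2 reads behind the value of knockout replicate 3 and 9 behind that of wild type replicate 2. Wild type replicate 2 was again within the knockouts.

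The 3 minor 5p arms rested on few reads. mmu-miR-764-5p had 1.19, 2.21, 2.09 and 1.55 CPM in the knockouts, against 7.04, 4.97 and 3.56 CPM in the wild types, from 2 to 19 reads per library. The knockouts were all lower. mmu-miR-448-5p ranged from 2.06 to 7.33 CPM in the knockouts and from 4.82 to 12.1 CPM in the wild types, and mmu-miR-1264-5p from 1.05 to 3.35 CPM in the knockouts and from 1.36 to 7.40 CPM in the wild types. Both overlapped between the groups. A 10th arm that the list does not hold, miR-1912-5p, had 17 reads over all libraries and 0 in knockout replicate 3. The exact binomial 95% interval of that value reached 3.86 CPM.

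Within libraries the order of the top arms was stable. miR-1298-5p exceeded miR-1298-3p in 7 of 7 libraries, miR-1298-3p exceeded miR-448-3p in 7, miR-448-3p exceeded miR-1264-3p in 6 (in knockout replicate 3 they had 31.4 and 32.5 CPM), and miR-1264-3p exceeded miR-764-3p in 7. The next neighbours, miR-764-3p and miR-1912-3p, kept their order in 7 libraries, miR-1912-3p and miR-448-5p in 5, and miR-448-5p and miR-1264-5p in 5. The last pair, miR-1264-5p and miR-764-5p, was in that order in 3 of 7 libraries and did not differ beyond its spread, with means of 3.36 ± 2.54 and 3.23 ± 2.12 CPM (SD, n = 7). Reads per mature miRNA also depend on ligation and are not absolute amounts, and since mature miRNAs are of nearly the same length, no length scaling was used.

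**Figure D2:**
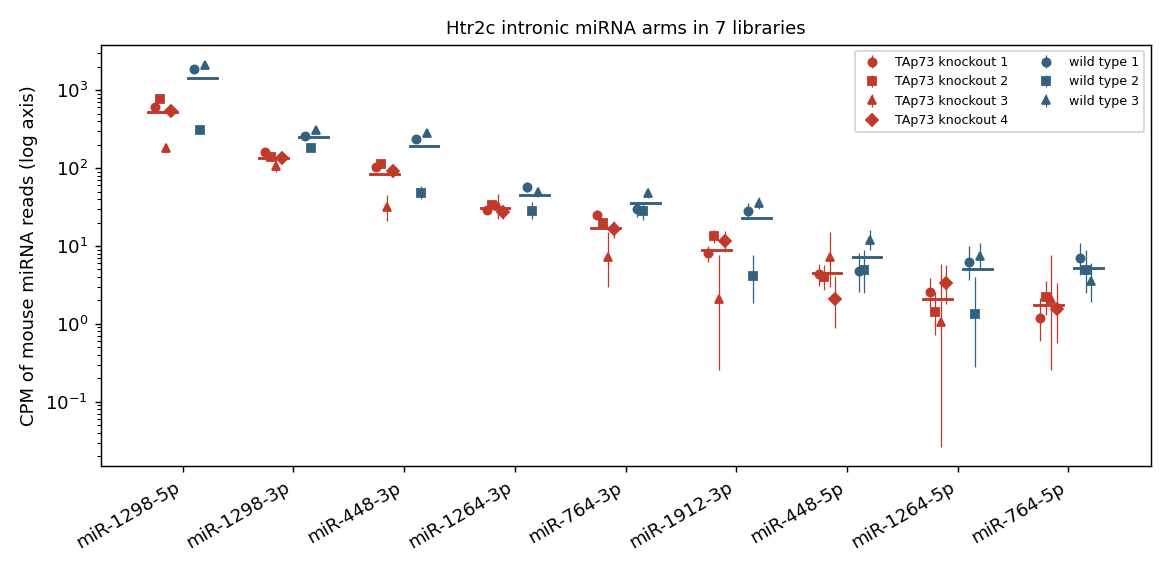
CPM of the 9 arms on a log axis in the 4 TAp73 knockout libraries (red, left of each pair) and 3 wild type libraries (blue); horizontal bars are group means and thin lines exact 95% binomial intervals, which cover counting error only. Wild type 2 (blue square) falls among the knockouts for miR-1298-5p, miR-448-3p and miR-1912-3p, while for miR-1298-3p, miR-764-3p and miR-764-5p every knockout lies below every wild type.

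The strand kept from each hairpin differed between loci. miR-1298 gave mainly the 5p arm, with 62.7% to 84.8% of its reads in knockouts and 62.6% to 87.8% in wild types. miR-448 gave mainly the 3p arm, its 5p share being 2.23% to 18.9% in knockouts and 2.01% to 9.32% in wild types. The 5p share of miR-1264 was 3.13% to 10.9% in knockouts and 4.55% to 13.04% in wild types, and that of miR-764 was 4.51% to 22.2% in knockouts and 6.84% to 19.2% in wild types.

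The 2 arms of miR-1298 did not keep a fixed ratio. The 5p share was 79.0%, 84.8%, 62.7% and 80.1% in the knockouts, against 87.8%, 62.6% and 87.5% in the wild types. The low values belonged to knockout replicate 3 (173 of 276 reads, exact binomial 95% interval 56.7% to 68.4%) and wild type replicate 2 (672 of 1073 reads, 59.7% to 65.5%), the libraries lowest in miR-204-5p. Their intervals lay below those of the other 5 libraries, where the lowest bound was 78.0%, and one of them was a knockout and the other a wild type. Put as a ratio, miR-1298-3p came to 59.5% and 59.7% of miR-1298-5p in these 2 libraries and to 13.9% to 26.6% in the rest. Group means of the 5p share were 76.7% ± 9.66 for 4 knockouts and 79.3% ± 14.4 for 3 wild types (SD), a difference smaller than the spread. That difference depended on these 2 libraries. Without both, the 5p share averaged 81.3% in 3 knockouts and 87.7% in 2 wild types, the shares did not overlap, and the intervals were apart (highest knockout bound 85.7%, lowest wild type bound 86.8%). Without wild type replicate 2 alone the knockouts were 11.0 percentage points lower, and without knockout replicate 3 alone they were 2.01 points higher, in neither case with a test. The intervals cover counting error only, since reads without molecular identifiers are not independent molecules.

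**Figure D3:**
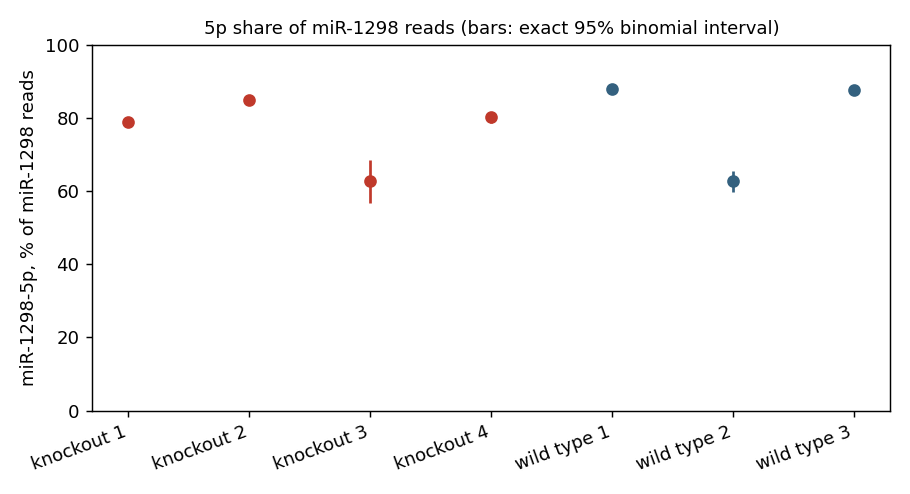
Share of miR-1298 reads that came from the 5p arm in each library (knockouts red, wild types blue), with exact 95% binomial intervals. Knockout 3 and wild type 2 lie at 62.7% and 62.6%, and the other 5 libraries between 79.0% and 87.8%.

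Across the 7 libraries, 3 arms from different hairpins moved closely together. On log2(CPM + 0.5), miR-1298-5p and miR-448-3p had a Pearson r of 0.997 and a Spearman rho of 1. miR-1298-5p and miR-1912-3p had an r of 0.987, and miR-448-3p and miR-1912-3p an r of 0.987. Without knockout replicate 3 and wild type replicate 2, r of these 3 pairs was 0.996, 0.965 and 0.954, in the same order. The pairs with miR-1912-3p then no longer stood apart. For example, r was 0.977 for miR-1298-3p with miR-448-3p and 0.971 for miR-1264-3p with miR-1298-5p. miR-1298-5p itself spanned 11.8-fold and miR-448-3p 9.06-fold, or 3.89-fold and 3.15-fold without knockout replicate 3 and wild type replicate 2. miR-448-3p was 14.7% to 17.3% of miR-1298-5p in knockouts and 12.6% to 15.9% in wild types, a range of 1.38-fold with all libraries and 1.36-fold without these 2. For arms of 1 hairpin r was 0.843 for the arms of miR-1298, 0.734 for those of miR-1264, 0.454 for those of miR-764 and 0.208 for those of miR-448, whose 5p arm had 7 to 44 reads. Much of that spread in r rested on the same 2 libraries: without them r was 0.957 for miR-1298, 0.743 for miR-1264, 0.535 for miR-764 and 0.838 for miR-448. Over the 36 pairs of arms r was positive in 36, with a median of 0.730 and a range of 0.132 to 0.997; without the 2 libraries it was positive in 36, with a median of 0.851 and a range of 0.453 to 0.996. All values come from the same 7 libraries, so depth and tissue make-up are shared by every pair.

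With all 7 libraries, the same 3 arms were also those closest to miR-204-5p. Its Pearson r was 0.940 with miR-448-3p, 0.918 with miR-1298-5p and 0.915 with miR-1912-3p, and it was 0.788 with miR-1264-5p, 0.659 with miR-764-3p, 0.626 with miR-1298-3p, 0.583 with miR-1264-3p, 0.123 with miR-448-5p and 0.012 with miR-764-5p. With the 9 arms summed, r was 0.889 and rho 0.964. Knockout replicate 3 and wild type replicate 2 were the libraries farthest from the median of miR-204-5p; without them r was 0.854 for the sum over the remaining 5 libraries, 0.867 for miR-1298-3p, 0.747 for miR-1264-3p, 0.968 for miR-764-3p, 0.590 for miR-1264-5p, 0.988 for miR-448-5p and 0.538 for miR-764-5p. It was thus higher without them for each of these arms except miR-1264-5p. For the 3 arms closest with all libraries, r without these libraries was 0.872 (miR-448-3p), 0.844 (miR-1298-5p) and 0.733 (miR-1912-3p). The closest arms were then miR-448-5p and miR-764-3p. The co-variation was known when the arms were chosen, and none of the 46 relations computed was tested. Within the knockouts both miR-204-5p and the summed arms were lowest in replicate 3, but miR-204-5p was highest in replicate 1 and the summed arms in replicate 2. Within the wild types both were highest in replicate 3 and lowest in replicate 2.

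Compared with wild types, the knockout libraries held lower mean levels of all 9 arms, but none passed the threshold. The 9 arms summed to 936, 1097, 373 and 837 CPM in the knockouts, against 2504, 605 and 2882 CPM in the wild types, means of 811 ± 311 CPM for 4 knockouts and 1997 ± 1220 CPM for 3 wild types (SD). Wild type replicate 2 lay below 3 of the 4 knockouts. In edgeR's quasi-likelihood test over the 534 mouse miRNA rows that passed its filter on low counts, all 9 arms passed the filter and 0 were called at an adjusted p under 0.05, where 0.749% of all rows were called lower. Adjusted p (Benjamini-Hochberg, over all 534 rows) ran from 0.101 to 0.499 for the arms. At an unadjusted p under 0.05, 4 of 9 arms were lower, against 6.74% of all rows. The log2 fold changes, knockout minus wild type, were below 0 for 9 of 9 arms with a median of -1.04, against 52.8% of all rows and a median of -0.02. The arms come from 5 hairpins within 1 gene and are not independent counts, and they were chosen with this comparison known, so these shares are descriptions.

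miR-1298-3p had the smallest p among the 9, with a log2 fold change of -0.78 ± 0.20 (SE), or 1.72-fold lower in knockouts the 95% interval running between 1.28 and 2.32 (edgeR adjusted p = 0.101). miR-764-5p had the largest difference, -1.52 ± 0.41, or 2.86-fold lower the interval running between 1.52 and 5.38 (adjusted p = 0.131). miR-764-3p was at -0.85 ± 0.31 (adjusted p = 0.31) and miR-1264-5p at -1.12 ± 0.51 (adjusted p = 0.38). The 3 arms that moved most closely together across all libraries had wide intervals. miR-1298-5p was at -1.35 ± 0.71, with a 95% interval of -3.05 to 0.35, miR-1912-3p at -1.16 ± 0.57 and miR-448-3p at -1.04 ± 0.57. miR-448-5p was at -0.83 ± 0.42, and miR-1264-3p had the smallest difference, -0.49 ± 0.23. On CPM, 3 of 9 arms had groups that did not overlap with knockouts lower, against 8.24% of all rows, and these were miR-764-5p, miR-764-3p and miR-1298-3p.

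The number of calls changed when wild type replicate 2 was left out, and again when knockout replicate 3 was left out with it. Without wild type replicate 2, edgeR called miR-1298-3p lower in knockouts (-0.95, adjusted p = 0.042), 1 of 9 arms against 1.46% of all rows. Without both libraries, which were singled out once their values were known, edgeR called 4 of 9 lower, against 2.23% of all rows: miR-1298-5p (-1.54, adjusted p = 6.0e-04), miR-448-3p (-1.24, adjusted p = 0.0042), miR-1912-3p (-1.46, adjusted p = 0.026) and miR-1298-3p (-0.86, adjusted p = 0.032). Leaving out any other single library gave 0 calls. DESeq2 called miR-1298-3p (adjusted p = 0.020) among 7 arms to which it gave an adjusted p, against 1.27% of all rows, and edgeR with no filter called the same arm (adjusted p = 0.0075), against 0.779% of all rows.

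Set against miR-204-5p, the summed Htr2c arms, of which 77.5% to 85.3% were miR-1298 reads, were lower in the knockouts. The 9 arms together came to 126, 155, 186 and 168 reads per 1000 reads of miR-204-5p in the knockouts, against 301, 301 and 245 in the wild types. Every knockout lay below every wild type, wild type replicate 2 included, and the group means were 159 ± 25.1 for 4 knockouts and 282 ± 32.7 for 3 wild types (SD). For miR-1298-5p the ratio was 81.1, 109, 90.3 and 109.9 in the knockouts, against 225, 151 and 181 in the wild types. For miR-448-3p it was 13.8, 16.03, 15.7 and 18.1 in the knockouts, against 28.3, 24.1 and 24.2 in the wild types. These were the 2 of 9 arms whose ratio did not overlap between groups, against 1.13% of the 533 tested rows other than miR-204-5p. Both are main arms of their hairpins, but the ratios of the other main arms, miR-764-3p, miR-1912-3p and miR-1264-3p, overlapped between groups. Group means of the ratio were close for miR-1264-3p (7.58 in knockouts, 8.43 in wild types) and miR-448-5p (1.31 and 1.36). The ratio of the sum spanned 2.39-fold over the libraries, where the sum itself spanned 7.73-fold, 4.76-fold without knockout replicate 3 and 3.44-fold without wild type replicate 2 as well. This ratio was looked at after seeing the data and was given no test.

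With log2 CPM of miR-204-5p as a covariate in the edgeR fit, 2 of 9 arms were called lower in knockouts, against 1.12% of all rows. miR-1298-5p was at -0.82 ± 0.16 (adjusted p = 0.032) and miR-1298-3p at -0.71 ± 0.15 (adjusted p = 0.037). For miR-1298-5p the standard error was 0.16 with the covariate and 0.71 without it. The co-variation of these arms with miR-204-5p was known when the arms and tests were chosen, so the 2 calls are given as descriptions. miR-448-3p was at -0.61 ± 0.17 (adjusted p = 0.15), miR-764-3p at -0.81 ± 0.25 (adjusted p = 0.20) and miR-764-5p at -1.52 ± 0.42 (adjusted p = 0.14), and none of these passed. All 9 arms stayed below 0, from -1.52 to -0.42. miR-204-5p itself was at -0.36 ± 0.65 in the fit without the covariate (adjusted p = 0.83). Without knockout replicate 3 and wild type replicate 2 it was at -0.52 ± 0.20 (edgeR adjusted p = 0.21). Its level in each remaining knockout library then lay below that in each remaining wild type library.

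**Figure D4:**
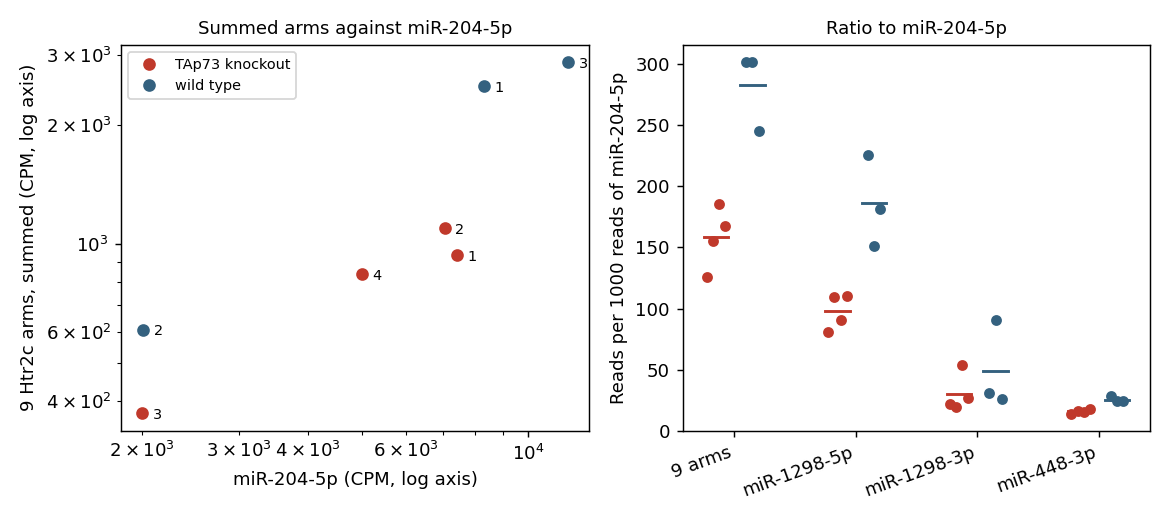
Left, the 9 arms summed against miR-204-5p in CPM on log axes, with replicate numbers beside the points (knockouts red, wild types blue). Right, reads per 1000 reads of miR-204-5p by library, with bars at the group means: for the sum, the knockouts lie at 126 to 186 and the wild types at 245 to 301.

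**Figure D5:**
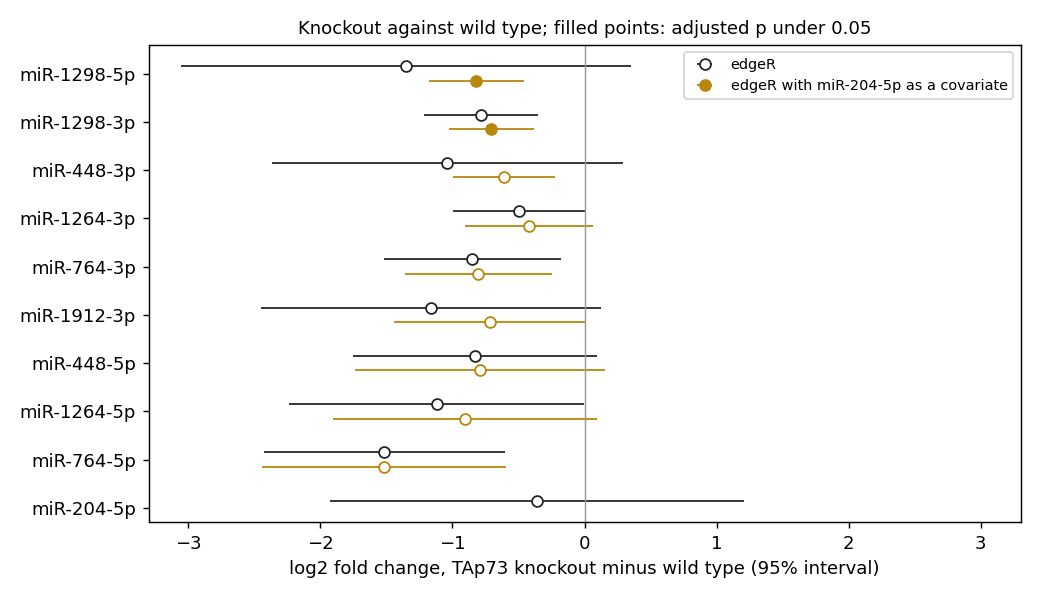
Log2 fold changes, TAp73 knockout minus wild type, with 95% intervals for the 9 arms and miR-204-5p, without (black) and with (ochre) miR-204-5p as a covariate; filled points passed an adjusted p under 0.05. All 9 arms lie left of 0 in both fits, and the filled points are miR-1298-5p and miR-1298-3p with the covariate.

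Other markers of the dissected tissue also differed between the libraries. The choroid plexus list (miR-204 and miR-211 arms, of which miR-211-3p had 0 reads) summed to 2016 to 7435 CPM in knockouts and 2015 to 11789 CPM in wild types, nearly all from miR-204-5p. miR-211-5p, with the same seed as miR-204-5p, stood at 2.47 to 7.33 CPM in knockouts and 3.34 to 6.85 CPM in wild types. Its r with the summed Htr2c arms was -0.200 over 7 libraries and 0.393 without knockout replicate 3 and wild type replicate 2, on 7 to 29 reads per library, so its sign rested on these 2.

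The multiciliated list (7 arms of miR-34b, miR-34c and miR-449, with miR-449b at 0 reads) summed to 385 to 760.5 CPM in knockouts and 1291 to 3675 CPM in wild types. Of its 6 tested arms, 4 were called lower and 2 higher. They were the only rows called in either direction, 6 of 534 or 1.12%. Among them were miR-34c-5p at -2.40 ± 0.33 and miR-449a-5p at 2.67 ± 0.41 (edgeR log2 fold changes, adjusted p = 0.0048 for both). The neuronal list of 6 was at 33872 to 38160.0 CPM in knockouts and 19911 to 33571 CPM in wild types, and the neural progenitor and glial list of 3 at 35760.2 to 41685 CPM in knockouts and 28586 to 34833 CPM in wild types, with 0 members called in either. The sums of these 3 lists thus had groups that did not overlap, but not all of their members did so. In the neuronal list, miR-128-3p had 17802 to 19444 CPM in knockouts and 8795 to 16666.5 CPM in wild types. miR-124-3p overlapped, with 5948 to 10028 CPM in knockouts and 5303 to 8763 CPM in wild types. miR-9-5p and miR-92b-3p of the progenitor and glial list also overlapped. The part of these lists in the levels of the Htr2c arms was not tested. The summed levels of the oligodendrocyte, leukocyte, erythrocyte, vessel wall and other epithelial lists overlapped between the groups.

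A second group of X-linked intronic miRNAs, 10 arms from introns of Clcn5, was steadier in its sum across the same libraries. It summed to 1259 to 1690.0 CPM in knockouts and 1446 to 1727 CPM in wild types, a range of 1.37-fold against 7.73-fold for the Htr2c arms and 5.87-fold for miR-204-5p. Without knockout replicate 3 and wild type replicate 2 the ranges were 1.37-fold, 3.44-fold and 2.36-fold, in the same order. In edgeR, 0 of its 7 tested arms were called, against 1.12% of all rows in either direction. Each sum rested on few arms. miR-1298 made up 77.5% to 85.3% of the reads of the Htr2c arms. Single Htr2c arms spanned 2.10-fold (miR-1264-3p) to 17.2-fold (miR-1912-3p), the latter 4.48-fold without both libraries. Of the Clcn5 arms, miR-501-3p alone stood at 870 to 1315 CPM in knockouts and 973 to 1184 CPM in wild types. The next, miR-532-5p, stood at 306 to 341 CPM in knockouts and 390 to 474 CPM in wild types. Its groups did not overlap, with knockouts lower, as in 8.24% of all rows. Of the 7 tested Clcn5 arms, 5 had a log2 fold change below 0, against 52.8% of all rows. The difference in range was not tested.

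By Pearson r with the summed Htr2c arms over the 7 libraries, the 10 most similar of 525 other tested rows were miR-301a-3p (0.968), miR-301b-3p (0.960), miR-140-5p (0.942), miR-26b-5p (0.933), miR-490-3p (0.929), let-7a-2-3p (0.920), miR-338-3p (0.919), miR-1191b-5p (0.903), miR-455-3p (0.899) and miR-204-5p (0.889). Without knockout replicate 3 and wild type replicate 2, r of these rows ran from 0.772 (miR-1191b-5p) to 0.996 (miR-301a-3p), with let-7a-2-3p at 0.812. In knockout replicate 3, miR-1191b-5p and let-7a-2-3p each stood at 1.05 CPM, which is 1 read. The 10 rows differed in how far they moved. miR-301a-3p spanned 1.502-fold, from 743 to 1117 CPM, and miR-26b-5p 1.32-fold, while miR-204-5p spanned 5.87-fold, or 2.36-fold without knockout replicate 3 and wild type replicate 2. miR-204-3p came 21st by this measure and miR-211-5p 374th.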

How the data were processed

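The authors deposited 1 table of raw read counts per library, with whole numbers per named small RNA and no normalization; each has 66573 rows, of which 5 closing lines for unassigned reads hold 0 reads (0% of each total). Per the labels' protocols, total RNA came from a phenol/chloroform extraction and libraries from the TruSeq small RNA kit. Without giving a role, the submitters' processing notes list mm10, DESeq2 and bcl2fastq 2.17.1.14. The sources used here name no aligner or counter.

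The test was edgeR 4.0.16 (R 4.3.3) on the mouse miRNA rows (TMM scaling, filterByExpr with a minimum count of 10 and a minimum total of 15, robust quasi-likelihood test, all 7 libraries), with Benjamini-Hochberg adjusted p under 0.05 called. Groups come from the genotype label; replicate numbers only name libraries. Standard errors of edgeR's log2 fold changes, which include its prior count, were calculated back from its test. Each is the absolute log2 fold change divided by the square root of F, and the 95% intervals were built from it. CPM uses the total of mouse miRNA rows without TMM factors. Correlations use a pseudocount of 0.5 CPM. Shares have exact Clopper-Pearson 95% intervals. No pair of libraries was identical. Alternatives were DESeq2 1.42.0, limma-voom (limma 3.58.1), other scalings and filters, no robust estimation, rows summed over species, a miR-204-5p covariate and leaving out libraries. Named miRNAs are the members, the miR-204 and miR-211 arms, the 10 rows most correlated with the summed members and leading members of some of the 10 marker lists. Beyond these, miR-1912-5p and miR-7062-5p were named after their values were seen. The members, lists and tests were chosen with earlier results of these data known. The fit was tested on simulated data. Sequences are RefSeq's and positions GENCODE's, both on GRCm38.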

Additional observations from a re-analysis of the deposited data

Results flagged for a closer look

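Among 16 values examined in the 4 knockout libraries, 1 stood apart, where chance alone marks about 1 group in 20. The 5p share of miR-448 reads was 18.9% in knockout replicate 3, from 7 of 37 reads (exact binomial 95% interval 7.96% to 35.2%), while the remaining knockouts had 2.23% to 4.05%. That distance makes up 0.891 of the range spanned by the 4 knockouts. The cause was not tested. The wild types, 3 libraries, were too few for this examination; their shares were 2.01%, 9.32% and 4.07%, the highest again in the library low in miR-204-5p.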

How the results depend on the processing

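All log2 fold changes of the 9 arms stayed below 0 in 19 alternatives, from -1.81 to -0.26, in 165 values. The number of arms called was 0 in the main test, and it was 1 with DESeq2, 1 with no filter, 2 with miR-204-5p as a covariate and 4 without knockout replicate 3 and wild type replicate 2 together; it was 0 with the other scalings, the stricter filter, limma-voom, no robust estimation and rows summed over species. Leaving out 1 library at a time gave 0 to 1. The cause was not tested. The log2 ratio of group means of the summed arms, knockout over wild type, was -1.30, or -1.73 to -0.94 without single libraries and -0.83 per 1000 reads of miR-204-5p. The Pearson r of the sum with miR-204-5p was 0.889, or 0.822 to 0.930 without single libraries. The difference in the 5p share of miR-1298 was -2.65 percentage points, or -11.0 to 2.01 without single libraries and -6.34 without both. The stricter filter (10 CPM in at least 3 libraries) kept 6 arms, and the fit without knockout replicate 4 kept 8. No paired analysis was possible because the replicate numbers only name the libraries in accession order and no label ties a knockout to a wild type library. Depth limits the minor arms: 1 read in knockout replicate 3 is 1.05 CPM, near the levels of miR-764-5p and miR-1264-5p there.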
